A study of Mus musculus with 32 samples.

Results

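The livers of ND-fed Cyp2b-null males were compared with those of ND-fed WT males by RNA-seq, using the 8 libraries that carry the labels for male sex, normal chow and either genotype, out of 32 libraries in the series. Each genotype had 4 libraries from mice that were 10 weeks old when the 8 weeks of feeding began. The Cyp2b-null mice lack Cyp2b9, Cyp2b10 and Cyp2b13 and were made by CRISPR/Cas9 on the C57BL/6J background. The labels call both genotypes C57BL/6, and the WT mice, for which the study's methods use the same B6 name as for C57BL/6J, were bought from The Jackson Laboratory and acclimated before the diets started, so genotype and colony of origin cannot be told apart. Both groups ate the normal diet (ND), and the series also holds CDAHFD-fed mice (a choline-deficient, high fat diet) and females, of which the CDAHFD-fed males also entered the fit and shared its estimate of the spread.

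CYP2B enzymes are cytochrome P450s of the liver that oxidize drugs, steroids and polyunsaturated fatty acids. In the mouse their genes lie in a cluster with the related Cyp2a, Cyp2f and Cyp2g genes, several are expressed mostly in females, and Cyp2b10 is the classical target of the xenobiotic receptor CAR. The comparison therefore asks what the liver transcriptome of a male mouse looks like without these genes when no steatogenic diet is given.

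The 8 libraries held between 5100620 and 10166959 counts on genes, so that 3 counts, taken as the floor of detection, equaled 0.295 to 0.588 CPM (counts scaled by library size); the floor covers counting error only. Log2 CPM values of libraries of the same genotype correlated across genes with r from 0.970 to 0.983. ND-fed WT replicate 2 stood apart, with 40.5% of its counts in its 50 most abundant genes against 36.1% to 38.1% in the others. The WT livers were not uniform. Replicates 2 and 4 reached at most r = 0.975 with another WT liver, and replicates 1 and 3 reached 0.983. The labels do not say whether livers of a group shared a cage, a litter or a day of collection. The p-values therefore measure the spread between livers within the groups of the fit, CDAHFD-fed males included. In bulk liver RNA, fewer cells of a type and less RNA per cell cannot be told apart.

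Of 13460 genes tested, 5 were called between the genotypes at an adjusted p-value under 0.05 (0.0371% of those tested), by edgeR's quasi-likelihood test with Benjamini-Hochberg adjustment. Cyp2a4 rose, and Cyp2b10, Creb3l2, Syvn1 and Atp2a2 fell. At an unadjusted p-value under 0.05 stood 1112 genes (8.26%), 488 of them higher in Cyp2b-null (3.63%) and 624 lower (4.64%). All 4 Cyp2b-null libraries lay above all 4 WT libraries for 251 genes (1.86%) and below them for 270 (2.01%). Over all genes tested the median log2 fold change was -0.01.

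**Figure D1:**
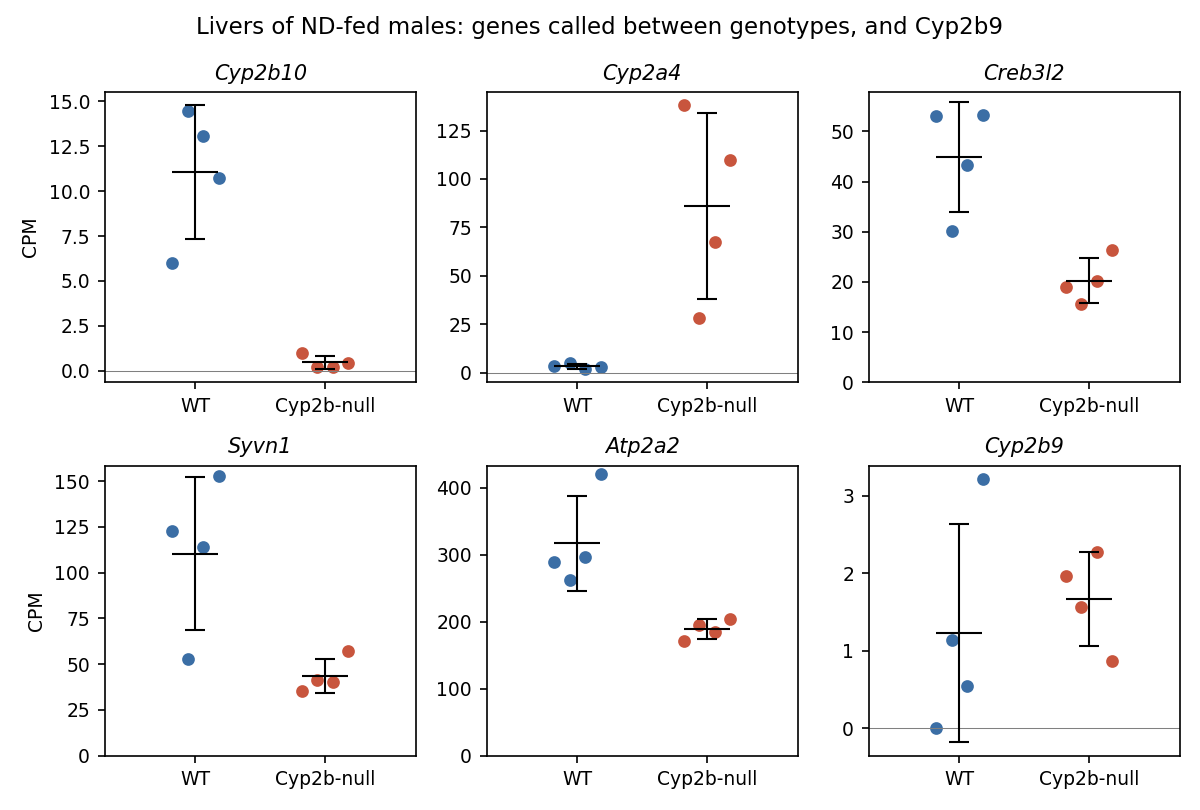
Expression in CPM (linear axes) of the 5 called genes and of Cyp2b9 in the livers of ND-fed WT and ND-fed Cyp2b-null males; each point is a library, and the bars give the mean and SD of 4 libraries. The genotypes do not overlap for Cyp2b10, Cyp2a4, Creb3l2 and Atp2a2; for Syvn1 ND-fed WT replicate 2, at 52.7 CPM, lies below Cyp2b-null replicate 4, at 57.1 CPM.

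The deleted genes were weakly expressed in male livers on ND, so only Cyp2b10 separated the genotypes. Cyp2b10 (chr7:25897658-25926624, GRCm38.p6) was at 5.97, 14.5, 13.1 and 10.7 CPM in the WT livers and at 0.984, 0.224, 0.207 and 0.436 CPM in the Cyp2b-null livers, which corresponds to 9, 1, 1 and 2 counts in the latter. The genotypes did not overlap, and Cyp2b-null replicate 1, the deepest library, held most of the remaining counts. Cyp2b10 fell by 4.31 on the log2 scale (SE 0.553, edgeR adjusted p = 0.000916).

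Cyp2b9, whose expression is female-predominant in mouse liver, was at 0, 1.14, 0.539 and 3.22 CPM in WT and at 1.97, 1.57, 2.28 and 0.872 CPM in Cyp2b-null. Values of both genotypes were at most 18 counts and overlapped, and the log2 fold change was 0.61 (SE 0.714, edgeR adjusted p = 0.888). Cyp2b13 had 0 counts in the WT livers and 2 counts in Cyp2b-null replicate 2 alone. The deletion of these genes could therefore not be read from the ND-fed males themselves. In the CDAHFD-fed males the WT livers held 118 to 364 counts of Cyp2b9 and the Cyp2b-null livers 2 to 7, and in the ND-fed females 1371 to 3530 and 4 to 8. No window of 150 bases was shared exactly between the transcripts of Cyp2b9, Cyp2b10 and Cyp2b13, in the GENCODE vM21 annotation.

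Cyp2a4, a steroid 15-alpha-hydroxylase that is expressed mainly in females, showed the largest fold change of all genes tested. It was at 3.44, 4.71, 1.89 and 3.0 CPM in the ND-fed WT males and at 138, 28.4, 67.3 and 110 CPM in the ND-fed Cyp2b-null males. Every Cyp2b-null liver lay above every WT liver, although Cyp2b-null replicate 2 had the least and replicate 1 the most. Cyp2a4 rose by 4.74 on the log2 scale (SE 0.532, edgeR adjusted p = 0.00021), a fitted ratio of 26.7. In ND-fed females, whose WT livers had a mean of 810 CPM (normalized separately from the males), the Cyp2b-null livers had a mean of 1452 CPM and the log2 fold change was 0.84 (SE 0.407, edgeR adjusted p = 0.866, where 0.0756% of the genes tested were called). The male and female effects of the genotype on Cyp2a4 differed by 3.89 on the log2 scale, with an edgeR adjusted p of 0.0534 (0.00713% of the genes tested were called for such a difference). This difference was called by DESeq2, the likelihood ratio test, library size alone, the 1 CPM filter and no filter. It was also called without ND-fed Cyp2b-null male replicate 2 or ND-fed WT female replicate 1, and under no other alternative at the threshold of 0.05. In CDAHFD-fed males Cyp2a4 rose by 2.64 (SE 0.437, edgeR adjusted p = 0.0314, with 0.0297% of the genes called). Its genotype effect there minus that on ND was -2.10 and did not pass the test of that difference (edgeR adjusted p = 0.66, with 0.00743% of the genes called).

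Cyp2a4 lies near the deleted genes, though the exact ends of the deletion are not given in the sources used here. The span from the start of Cyp2b10 to the end of Cyp2b9 covers 313 kb of chromosome 7, and Cyp2a4 (chr7:26307192-26315088) starts 96.53 kb beyond it. Its nearest relative, Cyp2a5 (chr7:26835339-26843264), encodes the coumarin 7-hydroxylase. Cyp2a5 was at 401, 336, 278 and 310 CPM in WT and at 371, 327, 365 and 537 CPM in Cyp2b-null. The genotypes overlapped for Cyp2a5, with a log2 fold change of 0.27 (SE 0.207, edgeR adjusted p = 0.779). The reads of Cyp2a4 and Cyp2a5 can mostly be told apart, since 67 of the 1589 windows of 150 bases in the Cyp2a4 transcript (4.22%) also occur in Cyp2a5, though how the authors counted reads that fit both is not given in the sources used here.

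The stretches just before the start of both genes are shown because they carry almost the same letters while the genes differed so clearly in their values. They are from RefSeq promoters on GRCm38.p6, plus strand, chr7:26307073-26307191 for Cyp2a4 and chr7:26835219-26835337 for Cyp2a5, and over these 119 bases they differ at 2 positions, printed in capitals.
Cyp2a4: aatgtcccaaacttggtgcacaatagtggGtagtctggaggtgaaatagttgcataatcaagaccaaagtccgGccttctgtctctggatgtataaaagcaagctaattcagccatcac
Cyp2a5: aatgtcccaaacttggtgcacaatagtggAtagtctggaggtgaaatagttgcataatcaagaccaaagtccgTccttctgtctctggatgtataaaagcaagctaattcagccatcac

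The other neighbours of the deleted genes gave small values. Cyp2a12, with a log2 fold change of -0.11 (SE 0.125), was at 623, 622, 593 and 592 CPM in the WT livers and 551 to 578 CPM in the Cyp2b-null livers, without overlap but with a narrow gap. Cyp2a22 was at -0.26 (SE 0.321) and Cyp2f2, which oxidizes naphthalene in lung and liver, at -0.10 (SE 0.171), both with overlapping genotypes. Cyp2g1 reached at most 14 counts in any of the 8 livers, Cyp2b19 at most 3, and Cyp2b23 was at 0 in all of them; Cyp2s1 and Cyp2t4 were too low to be tested as well. Within 500 kb on either side of the deleted genes 32 genes are listed both in the RefSeq annotation and in the files, of which 15 were tested, and 4 had an unadjusted p-value under 0.05 against 8.26% of all genes. Besides Cyp2b10 and Cyp2a4 these were Tgfb1, at 0.81 (SE 0.243, edgeR adjusted p = 0.302), and Ceacam2, at -0.77 (SE 0.294, edgeR adjusted p = 0.458).

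Tgfb1, the growth factor that drives matrix production by stellate cells, was at 4.16, 4.55, 3.23 and 3.65 CPM in WT and at 5.58, 8.72, 9.11 and 4.36 CPM in Cyp2b-null. Only Cyp2b-null replicate 4 fell inside the range of the WT livers. Rnf170-ps, a pseudogene inside the span of the deleted genes, still had 1.66 to 4.36 CPM in the Cyp2b-null livers and 4.08 to 4.53 CPM in the WT livers. Pseudogenes can share reads with their parent gene, and how such reads were counted is not given in the sources used here.

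**Figure D2:**
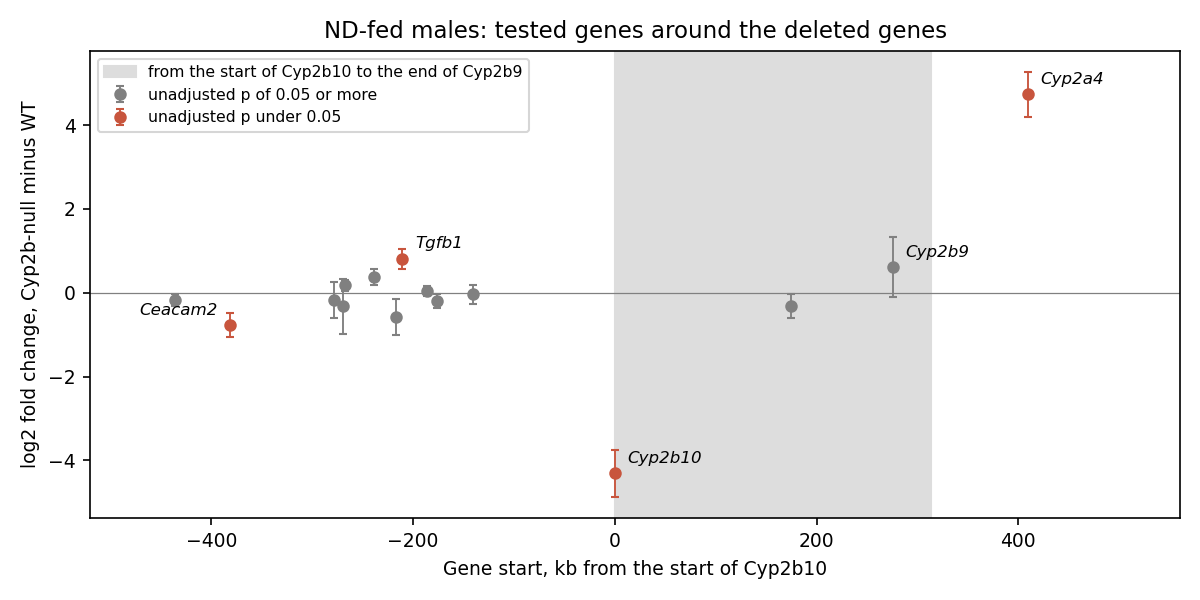
Log2 fold changes (Cyp2b-null minus WT, ND-fed males, bars SE) of the 15 tested genes within 500 kb of the deleted genes, against the start of each gene in kb from the start of Cyp2b10; the grey band runs from Cyp2b10 to the end of Cyp2b9. Cyp2b10 at -4.31 and Cyp2a4 at 4.74 stand far from the other genes, which lie between -0.77 and 0.81.

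The other 3 called genes belong to the endoplasmic reticulum (ER), where secreted proteins fold. Misfolded proteins there are recognized by chaperones such as HSPA5 (BiP), drawn back out and degraded by the ERAD machinery, and sensed by the IRE1, PERK and ATF6 pathways of the unfolded protein response. Hepatocytes, which secrete albumin and lipoproteins, depend on this system.

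Creb3l2 encodes an ER-anchored transcription factor that is cut free to drive genes of protein export. It was at 53.0, 30.1, 43.4 and 53.2 CPM in WT and 18.9, 15.7, 20.1 and 26.4 CPM in Cyp2b-null. The genotypes did not overlap, with WT replicate 2 the lowest WT liver. Creb3l2 fell by 1.15 on the log2 scale (SE 0.172, edgeR adjusted p = 0.00631).

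Syvn1 encodes HRD1, the ubiquitin ligase at the core of ERAD. It was at 123, 52.7, 114 and 153 CPM in WT and 35.1, 41.6, 40.2 and 57.1 CPM in Cyp2b-null. WT replicate 2 fell among the Cyp2b-null values and the other 3 WT livers were well above them. Syvn1 fell by 1.35 (SE 0.231, edgeR adjusted p = 0.0237).

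Atp2a2 encodes SERCA2, the pump that fills the ER with calcium. It was at 290, 262, 296 and 421 CPM in WT and 171, 195, 185 and 205 CPM in Cyp2b-null. The genotypes did not overlap, and WT replicate 4 was the highest. Atp2a2 fell by 0.75 (SE 0.125, edgeR adjusted p = 0.0218). The calls of Syvn1 and Atp2a2 were lost without 6 and 4 of the 8 livers in turn, including WT replicate 4 for each (log2 fold changes of -1.16 and -0.58, edgeR adjusted p = 0.136 and 0.062), and that of Creb3l2 without Cyp2b-null replicate 2 (-1.05, edgeR adjusted p = 0.0557). With only the 8 ND-fed male libraries in the fit, Cyp2a4 and Cyp2b10 were the 2 genes called.

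Of the 30 tested genes of ER stress and the integrated stress response, 10 had an unadjusted p-value under 0.05 and were lower in Cyp2b-null, against 4.64% of all genes, and 0 were higher. Their median log2 fold change was -0.21 against -0.01 over all genes, and 20 of the 30 were below 0 (51.8% of all genes). Syvn1 alone was called by edgeR in this list, and DESeq2 called Syvn1, Hyou1 and Gdf15. The list was drawn up with earlier results of these data known, so its counts are a description only.

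The 10 genes fall into recognizable parts of the pathway. Hyou1, an ER chaperone of the HSP70 class, was at 492, 444, 478 and 837 CPM in WT and at 297, 213, 289 and 222 CPM in Cyp2b-null, without overlap (log2 fold change -1.14, SE 0.229, edgeR adjusted p = 0.0965). Hspa5, the master chaperone of the ER, was at 1869, 1453, 1616 and 2616 CPM in WT and at 1071, 827, 1304 and 952 CPM in Cyp2b-null. Its genotypes did not overlap either, with a log2 fold change of -0.86 (SE 0.237, edgeR adjusted p = 0.218). Both had their highest value in WT replicate 4, and without it the log2 fold change of Hyou1 was -0.88.

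Dnajb9 encodes ERdj4, a cochaperone induced by IRE1 and XBP1. It was at 154, 47.8, 105 and 142 CPM in WT and 27.8, 41.4, 42.7 and 83.5 CPM in Cyp2b-null (log2 fold change -1.21, SE 0.3, edgeR adjusted p = 0.148). As for Syvn1, WT replicate 2 lay among the Cyp2b-null livers. The ERAD genes Sel1l, the partner of HRD1, and Edem1, which marks misfolded glycoproteins, had log2 fold changes of -0.52 (SE 0.140) and -0.34 (SE 0.120), both without overlap between the genotypes. Pdia4, a disulfide isomerase, Manf and Creld2, which are secreted from the stressed ER, had values of -0.52, -0.68 and -0.60 with overlapping genotypes.

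Gdf15, a stress hormone that is a target of the PERK and ATF4 arm, was at 9.96, 3.58, 7.14 and 10.1 CPM in WT and 1.53, 1.57, 2.69 and 5.45 CPM in Cyp2b-null (log2 fold change -1.50, SE 0.370, edgeR adjusted p = 0.145). Other genes of that arm lay on both sides of 0, none with an unadjusted p-value under 0.05 by edgeR. Asns, Sesn2 and Chac1 were at -0.78, -0.41 and -0.28, and Atf3, Psat1 and Atf5 at 0.89, 0.71 and 0.25. Atf4 itself was at 0.17 (SE 0.183), Ddit3 (CHOP) at 0.01 (SE 0.291) and Trib3 at -0.09, while Fgf21 was at 1.44 (SE 0.782, edgeR adjusted p = 0.67) with Cyp2b-null values from 0.328 to 8.94 CPM. The abundant chaperones Hsp90b1, Calr and Pdia6 had values of 0.03, 0.19 and 0.05, so the lower levels did not extend to every chaperone of the ER.

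Leaving out WT replicate 2 brought the edgeR calls over all genes from 5 to 29, and 4 members of this list were then called, all lower in Cyp2b-null: Syvn1, Hyou1, Dnajb9 and Gdf15. The number of members lower at an unadjusted p-value under 0.05 ran from 7 (without WT replicate 4) to 13 (without WT replicate 1) when each liver was left out in turn. The summed CPM of the list was 8164 to 10715 in WT and 6663 to 8190 in Cyp2b-null.

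The promoters of Syvn1, Hspa5 and Creb3l2 are shown because the ER stress response element (ERSE), bound by ATF6 and XBP1 together with NF-Y, can be read in the first 2 and not in the third. The ERSE was searched as CCAAT and CCACG with any 9 bases between them, on both strands of the RefSeq promoters (GRCm38.p6, 250 bases before to 50 after the start), where 39 of 32851 promoters hold it (0.119%). The stretches are the 120 bases before the start, with the ERSE in capitals: chr19:6046456-6046575 on the plus strand for Syvn1, chr2:34771970-34772089 on the plus strand for Hspa5 and chr6:37442149-37442268 on the minus strand for Creb3l2.
Syvn1: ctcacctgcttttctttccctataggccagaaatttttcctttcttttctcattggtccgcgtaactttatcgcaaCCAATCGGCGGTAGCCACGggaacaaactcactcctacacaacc
Hspa5: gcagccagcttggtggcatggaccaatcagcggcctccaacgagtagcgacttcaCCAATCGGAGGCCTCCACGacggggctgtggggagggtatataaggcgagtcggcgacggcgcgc
Creb3l2: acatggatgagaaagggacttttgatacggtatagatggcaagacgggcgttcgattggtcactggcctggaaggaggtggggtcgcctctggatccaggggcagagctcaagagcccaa

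Of the 29 list members with a promoter in the table, 8 hold the ERSE. Among these, Syvn1, Hspa5 and Creld2 were lower at an unadjusted p-value under 0.05, and the other 5 (Hsp90b1, Dnajc3, Pdia6, Calr and Canx) had log2 fold changes between -0.25 and 0.19. Among the members searched, the match thus did not separate those that were lower from those that were not. Dnajb9, Sel1l, Edem1, Pdia4 and Gdf15 were lower without it. Hyou1 and Manf were lower too but had no promoter to search, nor had the called gene Atp2a2. Whether the ERSE has a part in the genotype effect was not tested. A second motif, the UPR element searched as TGACGTG, was found in 661 promoters (2.01%) and in 1 of the 29 members, Hspa5.

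In CDAHFD-fed males Syvn1 had a log2 fold change of 0.01 (SE 0.231), Creb3l2 of -0.10 (SE 0.163), Atp2a2 of -0.23 (SE 0.125) and Hyou1 of -0.12 (SE 0.228), and in ND-fed females the values were -0.57, -0.46, -0.24 and -0.20. The difference of the genotype effect between the diets was 1.36 for Syvn1 and 1.05 for Creb3l2 (edgeR adjusted p = 0.447 for each). Both differences were called by DESeq2 (adjusted p = 0.0418 and 0.0371) and by edgeR without ND-fed WT replicate 2 (adjusted p = 0.00984 and 0.0392). For such a difference 6 of the 30 members had an unadjusted p-value under 0.05, against 6.07% of all genes. The mean of Hyou1 was 562 CPM in ND-fed WT males, above the other 3 male groups, against 255 in ND-fed Cyp2b-null, 181 in CDAHFD-fed WT and 167 in CDAHFD-fed Cyp2b-null males. For Creb3l2 the order was another: ND-fed Cyp2b-null males, at a mean of 20.3 CPM, lay below ND-fed WT at 44.9, CDAHFD-fed WT at 41.5 and CDAHFD-fed Cyp2b-null males at 38.7. Over the list, 0 members were higher and 2 lower at an unadjusted p-value under 0.05 in CDAHFD-fed males (median -0.21, against 1.34% and 2.28% of all genes), and 1 higher and 0 lower in ND-fed females (median -0.04, against 2.56% and 3.19% of all genes).

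**Figure D3:**
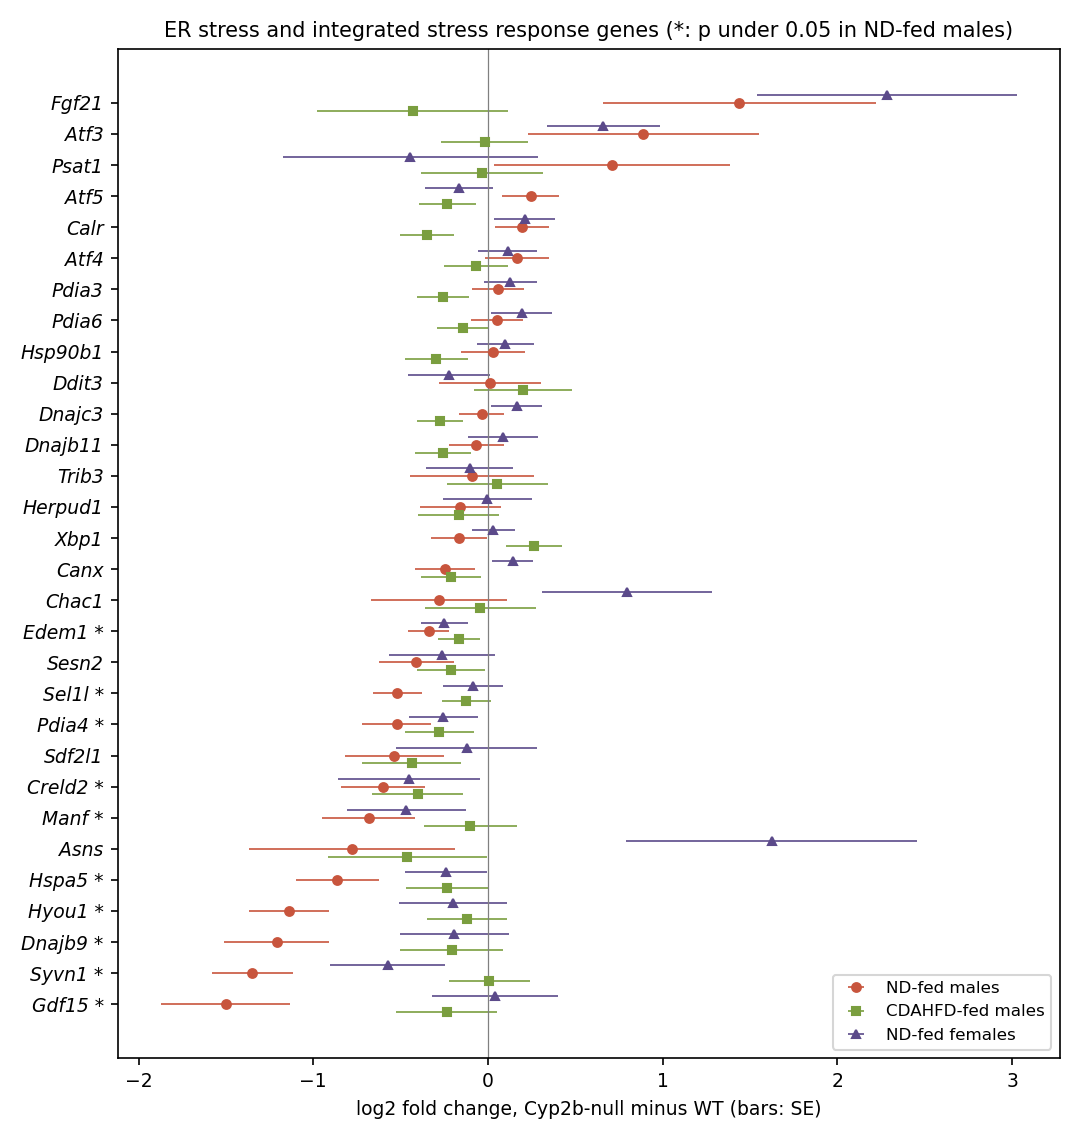
Log2 fold changes (Cyp2b-null minus WT, bars SE) of the 30 tested ER stress and integrated stress response genes in ND-fed males (circles), CDAHFD-fed males (squares) and ND-fed females (triangles), ordered by the value in ND-fed males. The 10 genes marked with an asterisk, from Edem1 at -0.34 to Gdf15 at -1.50, have an unadjusted p-value under 0.05 in ND-fed males, and most of the other 2 comparisons' values for them lie nearer to 0.

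The next genes belong to no list and were chosen after their values were seen. Mgat2, an N-glycan branching enzyme of the Golgi, was at 69.3, 65.2, 86.7 and 87.6 CPM in WT and 44.8, 38.9, 53.2 and 55.4 CPM in Cyp2b-null, without overlap (log2 fold change -0.68, SE 0.137, edgeR adjusted p = 0.0965). Gfpt1, the first enzyme of the hexosamine pathway, was at -0.96 (SE 0.211) without overlap, Tmed3, a cargo receptor between ER and Golgi, at -0.93 (SE 0.212), and Eif2ak3, which encodes the ER stress sensor PERK, at -0.84 (SE 0.209). Besides Mgat2 and Hyou1, those with an edgeR adjusted p between 0.05 and 0.1 were Tfrc (transferrin receptor, log2 fold change -1.39) and Mical2 (-0.83). Srgap3 (-1.68) and Slc39a4, a zinc importer (-0.67), also lay there. Gfpt1, Tmed3 and Eif2ak3 did not fall in that range.

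Cytosolic heat shock genes were likewise lower in part. Of 21 tested genes of the heat shock and immediate early response, 4 were lower at an unadjusted p-value under 0.05 and 0 higher, against 4.64% and 3.63% of all genes, the median log2 fold change was -0.34, and 0 were called by edgeR; DESeq2 called Hsph1. Hsph1, which encodes the HSP110 disaggregase, was at 84.9, 46.8, 92.0 and 116 CPM in WT and 28.4, 23.3, 36.6 and 59.7 CPM in Cyp2b-null (log2 fold change -1.20, SE 0.251, edgeR adjusted p = 0.107). WT replicate 2 was once more the lowest WT liver, within the range of the Cyp2b-null livers. Dnaja1 and Hspa8, both of the HSP70 cycle, were at -0.43 and -0.36, and Zfp36, an mRNA decay factor, at -0.50, each with overlap. In ND-fed females 4 members were higher and 1 lower at an unadjusted p-value under 0.05, against 2.56% and 3.19% of all genes, with a median of 0.31.

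Genes of lipid storage and uptake leaned the other way. Of 27 tested genes of lipid droplets and fatty acid uptake, 7 were higher in Cyp2b-null at an unadjusted p-value under 0.05, against 3.63% of all genes, and 0 were lower. The median was 0.15, 19 of the 27 were above 0 (48.2% of all genes), and 0 were called by edgeR, whereas DESeq2 called Cidec and Cd36. Earlier results of these data were known when this list was drawn up too.

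Cidec (FSP27) joins lipid droplets into larger ones and is induced by PPARG in fatty liver. It was at 3.98, 1.46, 1.35 and 1.93 CPM in WT and 3.50, 13.2, 3.93 and 18.3 CPM in Cyp2b-null (log2 fold change 2.12, SE 0.504, edgeR adjusted p = 0.143). Cyp2b-null replicates 2 and 4 stood above all WT livers, and replicates 1 and 3 lay at the level of the highest WT liver. Without Cyp2b-null replicate 4 the value was 1.60 and without WT replicate 1 it was 2.57.

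Cd36, a fatty acid transporter, was at 40.6, 45.2, 54.9 and 30.0 CPM in WT and 49.3, 107, 57.8 and 126 CPM in Cyp2b-null. The same 2 Cyp2b-null livers were highest, replicate 3 was just above the WT range, and the log2 fold change was 0.98 (SE 0.262, edgeR adjusted p = 0.198). Pparg, the nuclear receptor for which Cidec and Cd36 are targets, was at 0.68 (SE 0.229), Plin2, the main droplet coat protein of hepatocytes, at 0.52 (SE 0.164), G0s2, an inhibitor of the lipase ATGL, at 0.75 (SE 0.298), Pnpla2, which encodes that lipase, at 0.38 (SE 0.170), and Fabp2, a fatty acid binding protein, at 0.49 (SE 0.181). The edgeR adjusted p-values of these 5 lay between 0.344 and 0.566. The genotypes overlapped for each of the 7 genes. In CDAHFD-fed males 0 members of the list were higher or lower at an unadjusted p-value under 0.05, against 1.34% and 2.28% of all genes. In ND-fed females 2 were higher, against 2.56% of all genes.

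Cfd (adipsin), a protease made by adipocytes, had the largest positive value after Cyp2a4 among the genes described here. It was at 2.53, 3.09, 1.89 and 0 CPM in WT and 3.06, 32.4, 6.63 and 15.5 CPM in Cyp2b-null (log2 fold change 2.85, SE 0.649, edgeR adjusted p = 0.124). The highest livers were again Cyp2b-null replicates 2 and 4. Other adipocyte markers were nearly absent: Adipoq had at most 2 counts in any of the 8 livers, Plin1 at most 1, and Retn and Lep were at 0 in all of them. Car3, which hepatocytes also express, was at -0.14 (SE 0.223), and the summed CPM of the 6 markers was 5337 to 6551 in WT and 4605 to 5962 in Cyp2b-null.

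**Figure D4:**
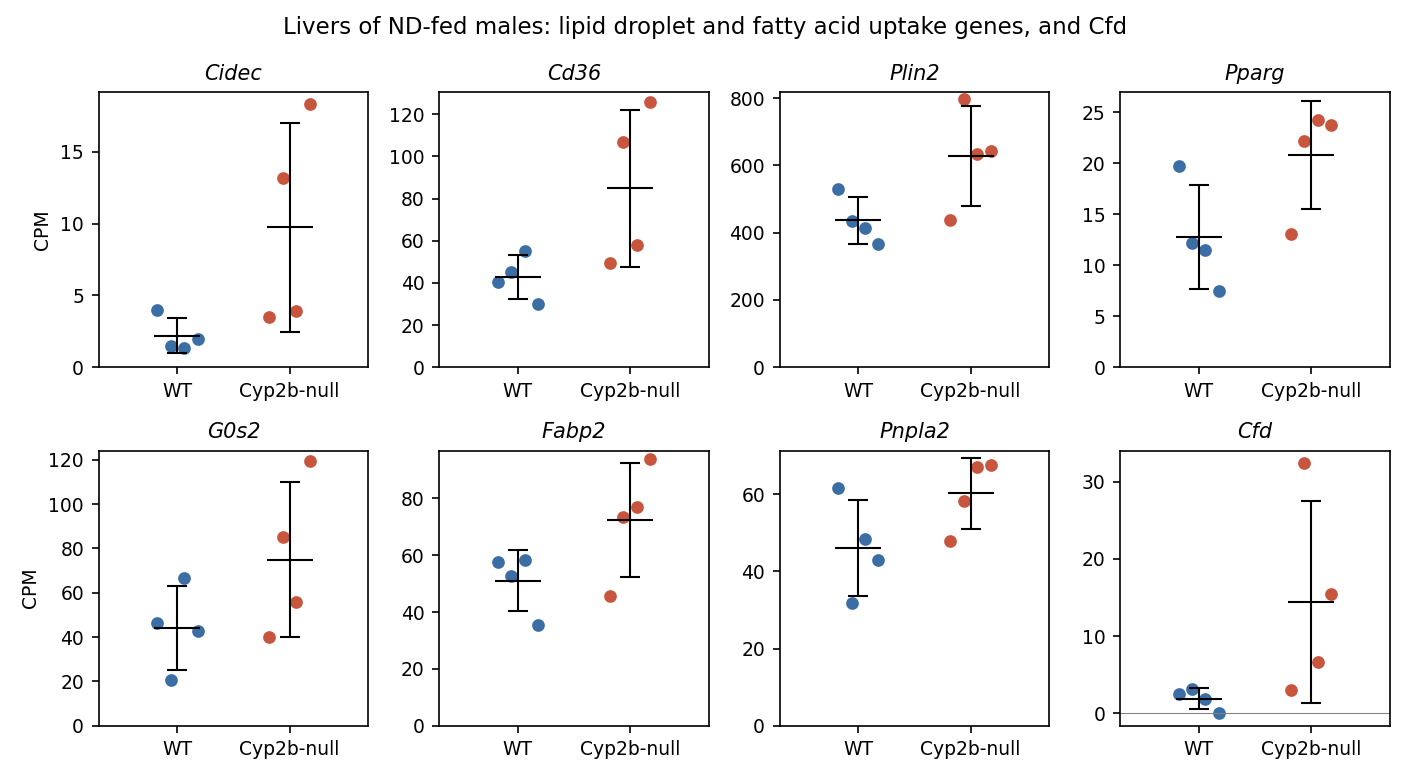
Expression in CPM of the 7 lipid droplet and fatty acid uptake genes with an unadjusted p-value under 0.05 and of Cfd, in ND-fed WT and ND-fed Cyp2b-null male livers; each point is a library, and the bars give the mean and SD of 4 libraries. For Cidec, Cd36, G0s2 and Cfd 2 Cyp2b-null livers lie above all others, and the genotypes overlap in every panel.

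Lipoprotein genes had 3 of 27 members higher at an unadjusted p-value under 0.05 and 0 lower, against 3.63% and 4.64% of all genes. Their median was 0.09. Apoa4, an apolipoprotein that rises with hepatic triglyceride, was at 117, 169, 150 and 152 CPM in WT and 217, 355, 304 and 236 CPM in Cyp2b-null. The genotypes did not overlap, with a log2 fold change of 0.92 (SE 0.213, edgeR adjusted p = 0.129), and DESeq2 called it. Angptl6 was at 0.41 (SE 0.189).

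Of 38 fatty acid oxidation and ketogenesis genes, 31 were above 0, against 48.2% of all genes, with a median of 0.09. At an unadjusted p-value under 0.05, 2 were higher and 0 lower, against 3.63% and 4.64% of all genes. The median in CDAHFD-fed males was -0.07. Vnn1, a pantetheinase and PPARA target, was at 37.1 to 53.8 CPM in WT and 59.3, 92.6, 62.3 and 127 CPM in Cyp2b-null, without overlap (log2 fold change 0.84, SE 0.232, edgeR adjusted p = 0.219). Cpt2, which completes carnitine-dependent import into mitochondria, was at 0.27 (SE 0.127). Among the 29 respiratory chain subunits 0 were higher and 1 was lower, Sdhb at -0.29.

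De novo lipogenesis and desaturation genes had 4 of 30 lower and 1 higher at an unadjusted p-value under 0.05 (median -0.14). The shares of all genes were 4.64% lower and 3.63% higher. The one higher was Fads3, a sphingoid base desaturase, at 7.06, 7.64, 7.95 and 7.94 CPM in WT and 11.7, 13.4, 13.0 and 17.2 CPM in Cyp2b-null. The WT livers were tightly grouped and all below the Cyp2b-null livers, with a log2 fold change of 0.84 (SE 0.201, edgeR adjusted p = 0.143), and DESeq2 called it. Elovl6, which lengthens palmitate, was at -0.46 (SE 0.177), and the WT livers themselves spread from 129 to 278 CPM. Elovl2, of the polyunsaturated pathway, was at 0.08 (SE 0.161). Cholesterol synthesis had 1 of 23 members lower, Mvd at -0.79 (SE 0.212, edgeR adjusted p = 0.195), and Fdft1 at 0.21. Bile acid synthesis and transport had 0 of 28 in either direction, and Cyp7a1, the rate-limiting enzyme of bile acid synthesis, was at 0.54 (SE 0.343) and Slco1a4 at -0.37 (SE 0.237).

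Of 33 targets of CAR and PXR, 1 was higher (Cyp2a4) and 0 lower at an unadjusted p-value under 0.05, against 3.63% and 4.64% of all genes, with a median of 0.09. The Cyp2c family had 0 of 13 and the Cyp2d family 0 of 9 in either direction, with medians of -0.0032 and 0.0044. Their members with the smallest p-values were Cyp2c70 at -0.28 and Cyp2c38 at 0.23, and Cyp2d11 at -0.22 and Cyp2d10 at -0.13. Cyp3a25, a steroid and drug oxidase of the CYP3A family, was at 0.34 (SE 0.141, edgeR adjusted p = 0.526), the 1 of 4 Cyp3a members higher at an unadjusted p-value under 0.05, and Cyp3a59 was at 0.24.

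Among 21 fatty acid hydroxylases and epoxygenases, 2 were higher and 0 lower at an unadjusted p-value under 0.05. The shares of all genes were 3.63% and 4.64%. The 2 were Ephx1, the microsomal epoxide hydrolase, at 0.35 (SE 0.127), and Cyp2j9, an arachidonate epoxygenase, at 0.83 (SE 0.318). Ces2g at -0.31 and Ces1g at -0.26 were the 2 of 17 carboxylesterases and flavin monooxygenases lower, and 0 were higher. Of 28 glutathione transferases and NRF2 targets, 23 lay above 0 (median 0.13, against 48.2% of all genes above 0). Of these 28, 1 was higher at an unadjusted p-value under 0.05, Gclc at 0.36, and 1 was lower, Mgst3, which was at 21.1 to 28.1 CPM in WT and 7.83 to 17.1 CPM in Cyp2b-null without overlap (log2 fold change -0.74, SE 0.232, edgeR adjusted p = 0.344). None of the 7 sulfotransferases had an unadjusted p-value under 0.05 by edgeR, with Sult1a1 at -0.16 and Sult1d1 at 0.13.

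The UDP-glucuronosyltransferases were above 0 in 16 of 16 tested members, with a median of 0.17. Of all genes 48.2% were above 0, and 3.63% were higher at an unadjusted p-value under 0.05. Values were small: Ugt2b38 at 0.51 (SE 0.199, edgeR adjusted p = 0.466) was the 1 member with an unadjusted p-value under 0.05, Ugt2b34 was at 0.21 without overlap between the genotypes, and Ugt2b1 was at 0.28. The Ugt1a transcripts share their last exons, so that reads of these members cannot be counted apart with certainty. The summed CPM of the family was 4128 to 4641 in WT and 4575 to 5497 in Cyp2b-null. In CDAHFD-fed males the median was -0.12 and in ND-fed females 0.18.

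The major urinary proteins, pheromone carriers under growth hormone control, were above 0 in 19 of 19 tested members, against 48.2% of all genes. Their median was 0.49, but the livers of a genotype differed widely. Their summed CPM was 26642, 11780, 20192 and 6292 in the WT livers and 13164, 29651, 18500 and 23192 in the Cyp2b-null livers. The genotypes overlapped, and without WT replicate 4, the lowest liver, the median was 0.18. Mup17 at 1.42 (SE 0.538, edgeR adjusted p = 0.457) was the 1 member with an unadjusted p-value under 0.05, and Mup19 was at 0.75. These genes are near-identical copies, so single members are uncertain and 1 source of reads may show in all of them.

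Of 18 tested female-biased liver genes, 4 were higher and 1 lower at an unadjusted p-value under 0.05, against 3.63% and 4.64% of all genes, with 9 above and 9 below 0 and a median of -0.07. Cyp2a4 was the only one called by edgeR, and DESeq2 also called Atp6v0d2, a proton pump subunit, which was lower (log2 fold change -1.54, SE 0.426). The other 3 higher members were Ntrk2 at 2.03 (SE 0.662), Slc22a27 at 0.91 and Tox at 0.66, and none of these had more than 8.94 CPM in any liver. Of 20 male-biased genes, 1 was higher (Ugt2b38) and 0 lower, with a median of 0.14.

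In the growth hormone, STAT5 and IGF axis 1 of 17 members was higher and 3 were lower at an unadjusted p-value under 0.05 (median -0.08). Among all genes 3.63% were higher and 4.64% lower. Socs2, a feedback inhibitor induced by STAT5, was at 12.5, 7.64, 9.70 and 8.37 CPM in WT and 14.9, 22.4, 23.8 and 23.1 CPM in Cyp2b-null. The genotypes did not overlap (log2 fold change 1.12, SE 0.387, edgeR adjusted p = 0.416), and in CDAHFD-fed males the value was 1.13 (SE 0.382). Igfbp1, a fasting-induced binding protein of IGF, was at -0.90 (SE 0.321) and Hnf4a, the hepatocyte identity factor, at -0.33 (SE 0.120). Among 24 nuclear receptors of xenobiotic and lipid metabolism, 2 were higher and 3 lower, Pparg and Hnf4a with the smallest p-values.

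Of 31 glucose and glycogen genes in the files, 30 were tested. At an unadjusted p-value under 0.05, 0 were higher and 3 lower, against 3.63% and 4.64% of all genes (median -0.10). Ppp1r3b, the liver subunit that directs a phosphatase to glycogen, was at 143, 388, 161 and 247 CPM in WT and 161, 186, 93.4 and 189 CPM in Cyp2b-null. Its genotypes overlapped, with a log2 fold change of -0.58 (SE 0.262, edgeR adjusted p = 0.579), and Irs2, the main insulin receptor substrate of hepatocytes, was at -0.44. Of the genes that the study names for males, Ppp1r3c was at -0.05 (SE 0.265), G6pc at -0.08 (SE 0.246), Angptl8 at 0.37 (SE 0.311), Cd68 at -0.10 (SE 0.333), Cyp17a1 at -0.16 (SE 0.376), Akr1b8 at 0.19 (SE 0.392) and Acta2 at 0.23 (SE 0.660), and Hcrtr2 was too low to be tested. The study described these genes chiefly in CDAHFD-fed males, against ND-fed WT or CDAHFD-fed WT males. The values given here, between genotypes on ND, are of another comparison and do not test what the study reported. Over the 10 tested genes of that list, which the study chose on these samples among others, 1 was higher (Col1a1) and 1 lower (Ppp1r3b) at an unadjusted p-value under 0.05.

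Urea cycle, amino acid and one-carbon genes had 0 of 37 higher and 3 lower at an unadjusted p-value under 0.05 (median -0.12). The shares over all genes were 3.63% and 4.64%. The summed CPM of the list was 27154.6 to 28867.4 in WT and 24378.6 to 26548.1 in Cyp2b-null, without overlap. Tat, which degrades tyrosine and is induced by glucocorticoids, was at 1758, 930, 1893 and 1669 CPM in WT and 880, 1061, 790 and 831 CPM in Cyp2b-null. WT replicate 2 lay within the Cyp2b-null range, and the log2 fold change was -0.81 (SE 0.227, edgeR adjusted p = 0.227). In ND-fed females the value of Tat was -1.02 (SE 0.318, edgeR adjusted p = 0.572). There 0 of the 37 members were higher and 11 lower at an unadjusted p-value under 0.05 (median -0.21), against 2.56% and 3.19% of all genes.

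Of 20 clock genes, 4 were higher and 3 lower at an unadjusted p-value under 0.05, against 3.63% and 4.64% of all genes, with a median of 0.06. Arntl (BMAL1), the positive arm of the clock, was at 6.70, 16.1, 15.6 and 11.6 CPM in WT and 7.33, 10.5, 2.48 and 1.74 CPM in Cyp2b-null (log2 fold change -1.16, SE 0.424, edgeR adjusted p = 0.433). Tsc22d3 (GILZ), a glucocorticoid-induced gene, was at -0.50 (SE 0.208). In ND-fed females 4 clock genes were higher and 2 lower at an unadjusted p-value under 0.05, against 2.56% and 3.19% of all genes, and in CDAHFD-fed males 0 in either direction, against 1.34% and 2.28%.

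Interferon response genes had 4 of 42 higher and 0 lower at an unadjusted p-value under 0.05 (median 0.06), against 3.63% and 4.64% of all genes, led by Psmb9 at 1.14 (SE 0.349) and Gbp10 at 0.70 (SE 0.226). Of 19 antigen presentation genes, 17 were above 0, against 48.2% of all genes, with a median of 0.27. H2-K1 was the 1 higher at an unadjusted p-value under 0.05 (log2 fold change 0.32, SE 0.126, edgeR adjusted p = 0.467, no overlap). H2-Q10, a secreted class I molecule of liver, was at 0.31. In ND-fed females the medians of these lists were -0.30 and -0.28, and 9 and 8 of their members had an unadjusted p-value under 0.05 for a difference of the genotype effect between the sexes, against 4.61% of all genes. Acute phase proteins had 2 of 28 higher, Mt2 at 1.59 (SE 0.672) and Saa3 at 0.64 (SE 0.282), and 3 lower (median -0.06). All Cyp2b-null livers lay below all WT livers for 4 members and above them for 0, against 2.01% and 1.86% of all genes. The summed CPM of the list was 50159.3 to 55396.3 in WT and 43519.5 to 48725.4 in Cyp2b-null, without overlap.

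Fibrosis and collagen genes had 3 of 38 higher and 4 lower at an unadjusted p-value under 0.05 (median -0.08), against 3.63% and 4.64% of all genes. Col1a1, the main fibrillar collagen of scar, was at 5.25, 2.11, 2.42 and 2.58 CPM in WT and 3.17, 3.80, 12.6 and 6.98 CPM in Cyp2b-null (log2 fold change 1.06, SE 0.421, edgeR adjusted p = 0.49). Cyp2b-null replicate 3 carried much of this value. Mmp14, a membrane collagenase, was at -0.72 (SE 0.248). Cell cycle genes had 1 of 30 higher, Plk1 at 1.52 with at most 1.09 CPM in any liver, and Tyms at 0.59. Pericentral and periportal genes had 2 of 23 higher and 1 lower, and the higher ones were the Wnt-dependent Tbx3 at 0.74 (SE 0.240) and Axin2 at 0.64 (SE 0.226), the latter without overlap.

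**Figure D5:**
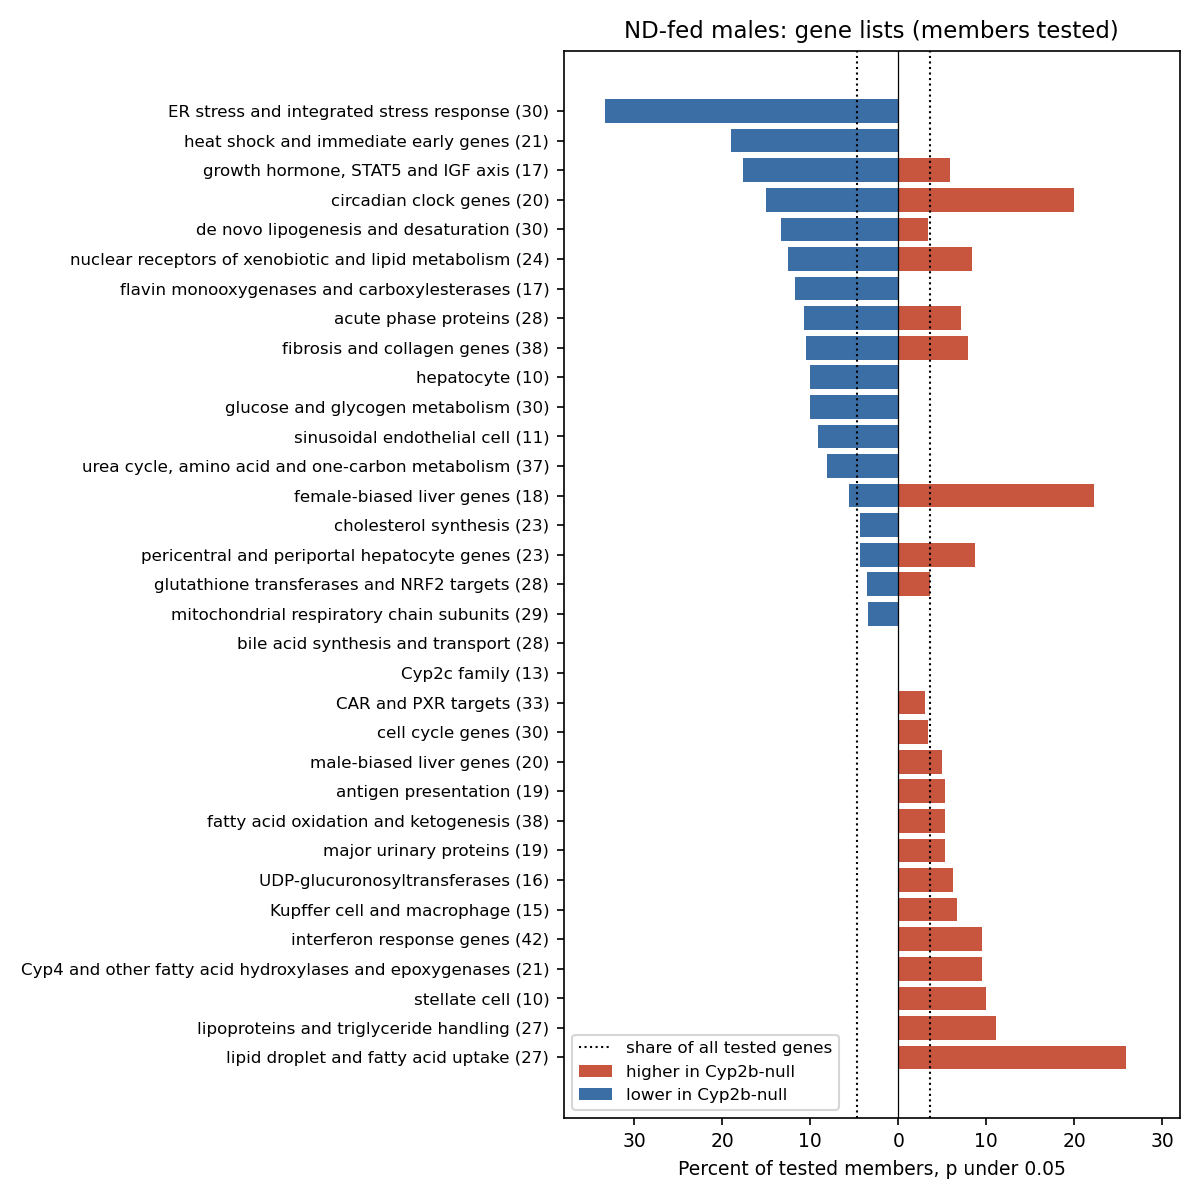
Share of tested members with an unadjusted p-value under 0.05 in ND-fed males, higher (right) and lower (left) in Cyp2b-null, for each list of at least 10 tested genes, whose number is in parentheses; dotted lines give the shares over all genes, 3.63% and 4.64%. ER stress genes (10 of 30 lower) and lipid droplet genes (7 of 27 higher) extend farthest, and lists of few members move by a large step with each gene. The lists were drawn up with earlier results of these data known, so their order is a description only.

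Markers of the cell types of the liver were checked for each library. Of all genes 3.63% were higher and 4.64% lower at an unadjusted p-value under 0.05, and 51.8% were below 0. Hepatocyte markers, led by albumin, summed to 153611 to 176038 CPM in WT and 144738 to 160593 CPM in Cyp2b-null, and 1 of 10 was lower at an unadjusted p-value under 0.05 (Tat). Kupffer cell and macrophage markers summed to 202 to 481 CPM in WT and 259 to 336 CPM in Cyp2b-null, with 1 of 15 higher, Ccr2 at 1.28. Sinusoidal endothelial markers were below 0 in 10 of 11 members, with a median of -0.30 and 1 lower at an unadjusted p-value under 0.05, and their sums of 304 to 422 CPM in WT and 265 to 371 CPM in Cyp2b-null overlapped. Stellate cell markers had 1 of 10 higher (Col1a1), erythroid markers 0 of 5 higher and 2 lower (Hbb-bs at -0.35 and Hbb-bt at -0.42), and 0 of 6 cholangiocyte, 0 of 4 lymphocyte and 0 of 3 neutrophil markers had an unadjusted p-value under 0.05. In every list but the 5 that hold Cyp2a4, Cyp2b10 or Syvn1, edgeR called 0 members, and DESeq2 called 0 too except for the genes named above. Exocrine pancreas markers summed to at most 23.3 CPM, and 4 of the 9 were at 0 in all 8 livers.

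Genes that mark sex and substrain were compared between the genotypes as well. The Y-linked genes Ddx3y, Eif2s3y, Uty and Kdm5d were expressed in every liver, from 9.87 CPM up, with unadjusted p-values by edgeR from 0.111 to 0.794, and Xist was at most 3.11 CPM. Nnt, which C57BL/6J mice carry with a deletion of some exons, was at 41.8 to 59.2 CPM in WT and 43.8 to 51.2 CPM in Cyp2b-null (log2 fold change -0.04, SE 0.130). Wdfy1 was at 0.05 (SE 0.261) and Cyfip2 at 0.47 (SE 0.468), and Entpd4 and Crb1 were too low to be tested. Counts per gene do not show which exons of Nnt are present, so the strain label itself was not tested. Of the 1112 genes with an unadjusted p-value under 0.05 in ND-fed males, 1070 were tested in females, and 711 of these had the same sign in ND-fed females. In CDAHFD-fed males 581 of all 1112 had the same sign. The share of all tested genes with the same sign was not computed, so these counts have no background to be read against. These comparisons share no libraries with the one described here, but genotype and colony of origin go together in them as well.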

How the data were processed

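Liver RNA was isolated in TRIzol, made into libraries by an NEB Next Ultra kit and read from both ends on a NovaSeq instrument. Per the submitters' processing notes and the study's methods, the authors used Trimmomatic for trimming, GSNAP for alignment on the GRCm38.p6 build and Subread for gene counts; versions and the handling of strand and of reads with several matches are not given in the sources used here. The deposited values are raw counts per gene, not normalized, for 41585 gene rows. Samples were grouped by their labels for genotype, sex and diet, with 4 libraries in each of 8 groups, and each symbol turned into a date (27) or listed more than once (4 rows) was left unnamed.

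The counts were fitted with edgeR 4.0.16 in R 4.3.3 (TMM factors, filterByExpr with a minimum count of 10 and a total of 15, quasi-likelihood test, Benjamini-Hochberg adjustment), over the 16 male libraries in 4 groups, and over all 32 for the difference between the sexes, with a threshold of 0.05. No covariate was used. CPM values use TMM library sizes, set separately for males and females. The script was tested on simulated data. DESeq2 1.42.0, other scalings, filters and tests, a replicate block and leaving out each library were the alternatives. Named genes were the deleted genes and their neighbours, up to 12 rises and 12 falls among called genes, up to 4 called or otherwise 2 lowest-p members of each list, the genes the study named for males, and sex and substrain markers; other genes given beside a count were chosen after their values were seen. Members and lists were chosen with earlier results of these data known. Of the list symbols, 11 were not matched. Positions and promoters are from RefSeq (GRCm38.p6). A member of the lists that the rule names is not reported here.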

Additional observations from a re-analysis of the deposited data

Results flagged for a closer look

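Of 195 groups of 4 livers examined (the livers of 1 genotype for 1 named gene), 6 held a liver that lay farther from the others than Dixon's 95% limit, which chance alone exceeds in about 1 in 20 groups. Hyou1 was at 836.9 CPM in ND-fed WT replicate 4 against 443.6 to 491.7 in the other WT livers, and Sel1l at 341.1 CPM in the same liver against 216 to 235.2. Socs2 was at 14.87 CPM in ND-fed Cyp2b-null replicate 1 against 22.37 to 23.81 in the others of its genotype. Col1a1 was at 5.25 CPM in ND-fed WT replicate 1 against 2.113 to 2.576, Akr1b8 at 4.04 CPM in ND-fed WT replicate 3 against 0.9754 to 1.448, and Cyp17a1 at 11.77 CPM in ND-fed Cyp2b-null replicate 4 against 4.921 to 6.039.

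The genotype effect differed between groups for the deleted gene Cyp2b9, which WT livers expressed in the CDAHFD-fed males and in females but hardly in ND-fed males. Its effect in CDAHFD-fed males minus that in ND-fed males was -6.973 on the log2 scale (SE 0.954, edgeR adjusted p = 0.00493), and its effect in ND-fed males minus that in ND-fed females was 9.396 (SE 0.894, edgeR adjusted p = 5.41e-08). The diet difference was not called without ND-fed Cyp2b-null replicate 1 (edgeR adjusted p = 0.0564), and DESeq2 gave no adjusted p for it (unadjusted p = 2.11e-11). Cyp2b9 was the 1 gene called in each of these tests of a difference (0.00743% and 0.00713% of the genes tested).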

How the results depend on the processing

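The 5 genes called between the genotypes became 61 with DESeq2, 92 with the likelihood ratio test, 170 with no filter on low counts, 3 with library size alone as the scaling, 11 at an adjusted p-value under 0.1, and 2 with the 8 ND-fed male libraries only. Leaving out 1 library gave 2 to 29 calls, the highest without ND-fed WT replicate 2 and the lowest without ND-fed Cyp2b-null replicate 2; it was 10 without Cyp2b-null replicate 4, and 3 without Cyp2b-null replicate 3 or WT replicate 4. The call was kept under all 18 alternatives for Cyp2a4 (log2 fold change 4.40 to 5.02, highest adjusted p = 0.0033) and Cyp2b10 (-5.17 to -4.10, highest adjusted p = 0.00947), and lost under 2 for Creb3l2, 6 for Atp2a2 and 8 for Syvn1, among them library size alone for the last 2 (adjusted p = 0.0802 for each). The causes were not tested.

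For the difference of the genotype effect between diets, 1 call became 8 with DESeq2, 2 with library size alone, 95 with no filter and 4 with the likelihood ratio test, and 0 to 3 without 1 library. The call of Cyp2b9 was lost without ND-fed Cyp2b-null replicate 1 (adjusted p = 0.0564, the highest over its edgeR alternatives, with 4.14e-05 the lowest without 1 library), and DESeq2 gave it no adjusted p. The calls that were added without ND-fed WT replicate 2 were Syvn1 and Creb3l2. For the difference between the sexes, 1 call became 5 with DESeq2, 2 with library size alone, 63 with no filter, 2 with the 1 CPM filter, 5 with the likelihood ratio test and 2 at an adjusted p-value under 0.1, and 1 to 2 without 1 library, with Cyp2b9 called under each.

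A replicate block raised the calls between genotypes to 8. The replicate numbers share only a number: deviations of same-numbered livers correlated at -0.21, 0.0976, 0.128 and -0.0317, and not every liver correlated best with its own number. Signs reversed without 1 library for Cd68 (range -0.27 to 0.236, the latter without ND-fed WT replicate 3), Cyp17a1 (-0.53 to 0.311, the latter without ND-fed WT replicate 4) and the median of the male-biased genes (-0.0158, without ND-fed WT replicate 4, to 0.269). Signs also reversed without 1 library for G6pc (-0.256 to 0.0747), Eif2s3y (-0.0932 to 0.0368), Wdfy1 (-0.105 to 0.253), Acta2 (-0.186 to 0.8289), Kdm5d (-0.162 to 0.144), Ppp1r3c (-0.386 to 0.118), Elovl2 (-0.0521 to 0.184), Akr1b8 (-0.0404 to 0.915), Nnt (-0.0943 to 0.0787, and 0.00258 with library size alone) and the median of the female-biased genes (-0.278 to 0.264). None of these was called.

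With 4 libraries a group and 5100620 to 10166959 counts each, genes under 0.295 to 0.588 CPM could not be told from 0. Genotype and colony of origin cannot be told apart.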
